A study of Mus musculus with 6 samples.

Results

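The small heat shock proteins were followed as 7 genes (Hspb1, Cryab, Hspb8, Hspb6, Hspb2, Hspb3 and Hspb7), chosen by gene name in the array annotation, out of 35019 gene symbols on the array. They were read by 8 of 55681 non-control probes, 1 probe each and 2 for Cryab. Hspb7 was spotted 10 times on each array. Probes of 6 of the 7 genes were well above background on all 6 arrays, and the probe of Hspb7 on none.

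The 6 groups were olfactory bulb PAMAM, olfactory bulb saline, hippocampus PAMAM, hippocampus saline, cortex PAMAM and cortex saline, with 1 array in each. All came from male mice of the inbred BALB/c strain, aged 8 weeks and of no stated genotype change. The mice received PAMAM dendrimers, branched polyamidoamine polymers studied as drug carriers, at 0.15 mg/kg into the nose or saline by the same route, and tissue was collected 24 h later. RNA from 6 independent experiments was pooled for each array, so each PAMAM minus saline value of a region sets 1 array against 1 other. It has no replicate check and gets no p-value, and the number of arrays limits its precision.

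Small heat shock proteins share a conserved alpha-crystallin domain, assemble into oligomers and hold unfolding proteins in a soluble state without using ATP. The bound proteins are passed to the ATP-driven chaperones of the HSP70 and HSP90 families for refolding, or to degradation. Some members are induced by heat shock factors under stress, while others are mainly known as proteins of skeletal and heart muscle. In brain, alphaB-crystallin (Cryab) is known from oligodendrocytes and astrocytes, and Hspb1 from glia and vessels as well as from some neurons.

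Heat shock factors bind inverted repeats of the unit GAA, and the promoter of Hspb1, the member with the greatest difference between PAMAM and saline in each region, is shown for that reason. The RefSeq window of GRCm38.p6 upstream of its start site, chr5:135887669-135887918 on the plus strand, reads as follows, with matches to GAANNTTC in capitals.
Hspb1: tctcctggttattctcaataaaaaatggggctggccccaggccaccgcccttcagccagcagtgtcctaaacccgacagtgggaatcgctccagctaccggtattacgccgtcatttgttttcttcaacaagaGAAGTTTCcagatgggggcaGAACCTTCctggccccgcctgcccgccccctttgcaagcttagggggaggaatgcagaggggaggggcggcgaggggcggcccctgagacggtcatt
The matches begin at -117 and -97 from the start site, counted on the gene's strand. The RefSeq promoter table holds 6 windows for 5 of the members, each with 250 bases before and 50 after a start site, and none for Cryab and Hspb2. A search for GAANNTTC and TTCNNGAA, each of which reads the same on both strands, found a match in 4 of the 6 windows, belonging to 4 genes. Of all 32851 windows of this length 15.1% hold at least 1 of these motifs. The same 8 letters, GAAGTTTC, occurred in Hspb1, Hspb6 and Hspb8, and these 30-base stretches are shown because they share that match.
Hspb1: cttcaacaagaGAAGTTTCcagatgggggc
Hspb6: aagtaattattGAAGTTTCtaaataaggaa
Hspb8: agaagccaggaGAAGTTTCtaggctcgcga
The stretches lie at chr5:135887791-135887820 on the plus strand for Hspb1, chr7:30553170-30553199 on the plus strand for Hspb6 and chr5:116422844-116422873 on the minus strand for Hspb8. The match begins at -120 from one of the start sites of Hspb6 and at 3 bases into the transcript of Hspb8, while the other Hspb6 window and the Hspb7 window held none. In Hspb3 a match, GAATTTTC, began at -224. A match is a description of letters and shows no binding.

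The probes that read Cryab and Hspb3 are printed because Cryab was measured by 2 probes that differed in the cortex and because Hspb3 differed most between regions. Each is a 60-base oligonucleotide, given as the array files hold it, with mm9 coordinates.
Cryab probe 1: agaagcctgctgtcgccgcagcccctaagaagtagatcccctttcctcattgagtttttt
Cryab probe 2: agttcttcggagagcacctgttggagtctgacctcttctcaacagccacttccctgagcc
Hspb3: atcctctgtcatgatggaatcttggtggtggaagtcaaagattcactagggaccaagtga
Cryab probe 1 lies at chr9:50564566-50564625 and probe 2 at chr9:50561458-50561517, both on the plus strand, and the Hspb3 probe at chr13:114453236-114453295 on the minus strand. The other probes lie at chr5:136365366-136365425 (plus) for Hspb1, chr5:116859063-116859122 (minus) for Hspb8, chr7:31340398-31340457 (plus) for Hspb6, chr9:50559211-50559270 (minus) for Hspb2 and chr4:140980355-140980414 (plus) for Hspb7. Hspb2 and Cryab are neighbours on chromosome 9, and their probes lie on opposite strands. Whether a probe lies in an exon or a UTR was not analysed here, since no mm9 annotation was used.

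Between 34134 and 39057 of the 59305 non-control spots of an array were well above background, and 0 were saturated. Repeated spots of a probe differed by a median SD of 0.08 to 0.09 on the log2 scale. Levels are given as log2 of the processed signal over the 75th percentile of the same array, and a level of one probe is not set against that of another. The region labels were checked against lists of 10 neuron markers for each region, by the summed level of those well above background on all 6 arrays. Over 8 olfactory bulb neuron markers the sum was 134 and 136 times the 75th percentile in the PAMAM and saline arrays of that region, and 5.81 to 10.5 elsewhere. For 4 hippocampal markers the sums were 107.3 and 119.4 in the PAMAM and saline arrays of the hippocampus and 34.7 to 46.6 elsewhere, and for 9 cortical markers 102 and 104 in those of the cortex and 20.3 to 56.3 elsewhere. These 3 lists were added after values had been seen.

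Hspb1, a stress-inducible chaperone of actin and of misfolding proteins, was higher with PAMAM in every region. Its level was 2.68 in the PAMAM array and 2.27 in the saline array of the olfactory bulb, 2.94 and 2.04 in those of the hippocampus, and 3.27 and 2.13 in those of the cortex. All 3 PAMAM arrays lay above all 3 saline arrays, as they did for 302 of 21093 genes well above background on every array (1.43%). The differences were 0.41, 0.90 and 1.14, or 1.33-fold, 1.87-fold and 2.21-fold, against an SD of 0.07 expected from spot noise in each region. By its difference Hspb1 ranked 463 of 23292 genes in olfactory bulb, 175 of 22329 in hippocampus and 44 of 21601 in cortex. Among genes within 0.5 of its mean level, which share its signal noise, 3 of 2126, 2 of 2124 and 2 of 2064 had a higher difference in these regions. The saline arrays differed little between regions for this gene, at 2.04 to 2.27, and the PAMAM arrays more, at 2.68 to 3.27. In RNA from whole tissue, more cells of a type and more RNA per cell cannot be told apart.

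**Figure D1:**
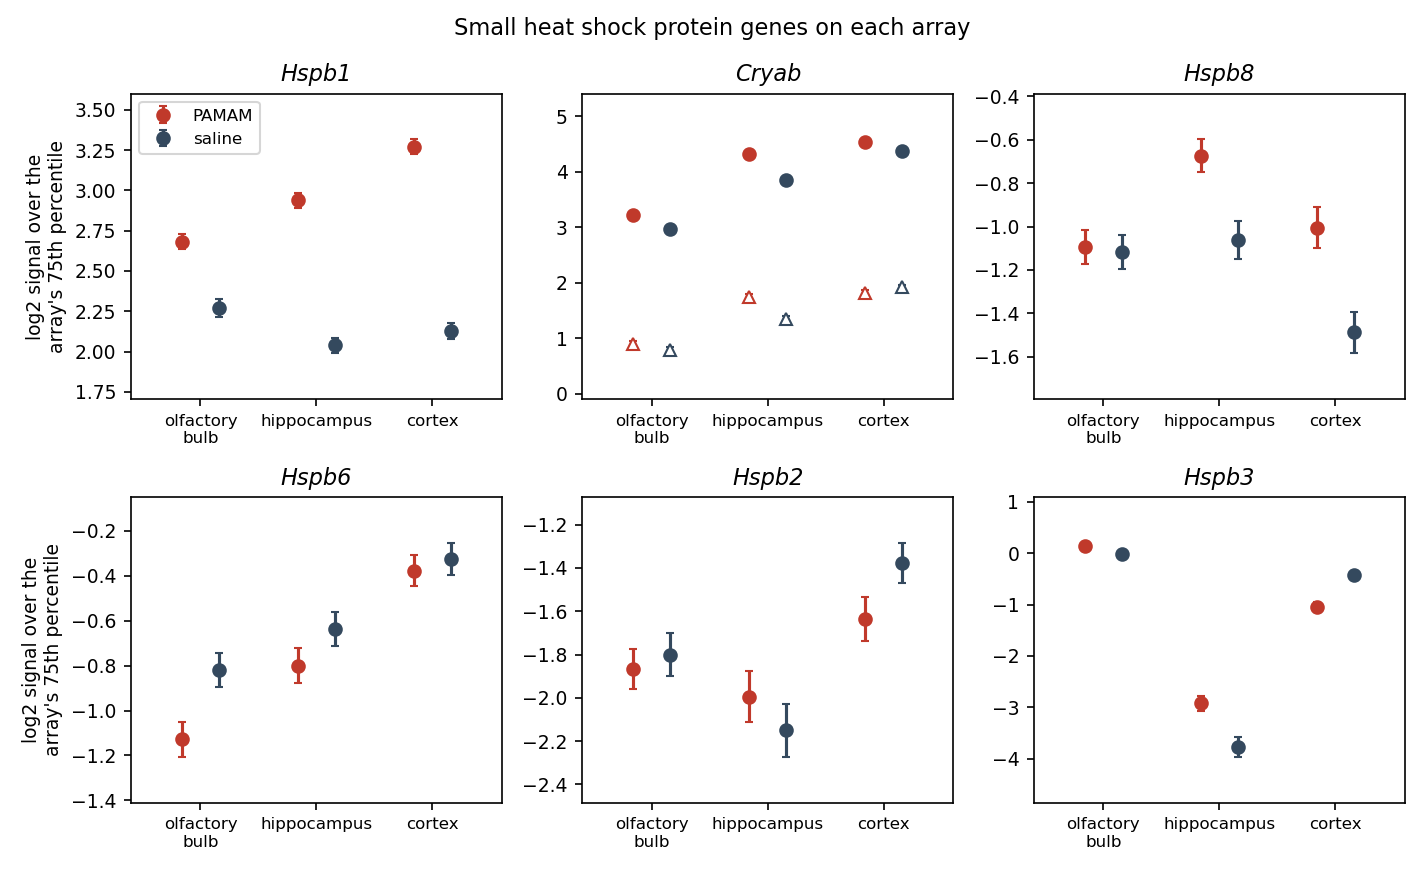
Level of each small heat shock protein gene (log2 signal over the array's 75th percentile) on each array, PAMAM in red on the left and saline in dark blue on the right of each region, with error bars of 1 SD of spot noise. Open triangles are the second Cryab probe. Each panel has its own scale that does not start at 0. The PAMAM points of Hspb1 (2.68 to 3.27) all lie above its saline points (2.04 to 2.27), while Hspb3 separates the regions.

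Cryab, the alphaB-crystallin that binds desmin and other filament proteins and is abundant in lens and muscle, was higher with PAMAM by smaller amounts. On probe 1 its level was 3.22 in the PAMAM array and 2.97 in the saline array of the olfactory bulb, 4.32 and 3.85 in those of the hippocampus, and 4.54 and 4.37 in those of the cortex. The differences of 0.26, 0.47 and 0.17 exceeded 2 spot-noise SDs (SD 0.06 to 0.07). The PAMAM and saline arrays overlapped across regions, because the regions differed more than the treatments. On probe 2 the levels were 0.90 and 0.79 in the PAMAM and saline arrays of the olfactory bulb, 1.75 and 1.35 in those of the hippocampus, and 1.82 and 1.92 in those of the cortex. Its differences were 0.11, 0.41 and -0.10, so the probes had the same sign in the olfactory bulb and hippocampus and opposite signs in the cortex. Among genes within 0.5 of the level of probe 1, those with a higher difference than Cryab were 34 of 1759 in the olfactory bulb, 3 of 1219 for the hippocampus and 237 of 1073 for the cortex.

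Hspb8, which works with the co-chaperone Bag3 in passing misfolded proteins to autophagy, was higher with PAMAM in the hippocampus and the cortex. Its level was -1.10 in the PAMAM array and -1.12 in the saline array of the olfactory bulb, -0.67 and -1.06 in those of the hippocampus, and -1.005 and -1.488 in those of the cortex. The hippocampal difference of 0.39 (1.31-fold, spot-noise SD 0.12) and the cortical difference of 0.48 (1.40-fold, SD 0.13) exceeded spot noise, and that of the olfactory bulb, 0.02, did not. Both lay inside the range of 95% of genes of like level, -0.35 to 0.51 in the hippocampus and -0.61 to 0.56 in the cortex. Bag3 itself differed by -0.16, 0.21 and 0.01 in the olfactory bulb, hippocampus and cortex.

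Hspb6, a relative of alphaB-crystallin known for its part in smooth and heart muscle relaxation, was lower with PAMAM in each region. Its level was -1.13 in the PAMAM array and -0.82 in the saline array of the olfactory bulb, -0.80 and -0.64 in those of the hippocampus, and -0.38 and -0.32 in those of the cortex. The olfactory bulb difference of -0.31 exceeded 2 spot-noise SDs (SD 0.11), and those of the hippocampus (-0.17) and cortex (-0.05) did not. With arrays scaled to their median in place of the 75th percentile, the cortical difference was 0.05. Lower values in every region were seen for 14.2% of genes.

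Hspb2 and Hspb3 form a complex in muscle, where Hspb2 also binds the kinase of myotonic dystrophy, and Hspb7 is known from heart and skeletal muscle. Hspb2 had levels of -1.87 and -1.80 in the PAMAM and saline arrays of the olfactory bulb, -1.99 and -2.15 in those of the hippocampus, and -1.64 and -1.38 in those of the cortex. Its differences of -0.07, 0.16 and -0.26 all lay within 2 spot-noise SDs. Hspb3 had levels of 0.14 and -0.02 in the PAMAM and saline arrays of the olfactory bulb, -2.92 and -3.77 in those of the hippocampus, and -1.05 and -0.42 in those of the cortex. It differed by 0.16 in olfactory bulb, by 0.85 in hippocampus (1.80-fold, spot-noise SD 0.24) and by -0.63 in cortex (0.65-fold, SD 0.12). It was thus higher with PAMAM in one region and lower in another, and with normexp background correction these 2 differences were 0.47 and -0.49. Hspb7 was not well above background on any array, with levels of -6.90 and -6.88 in the PAMAM and saline arrays of the olfactory bulb, -6.57 and -6.87 in those of the hippocampus, and -6.49 and -6.45 in those of the cortex, and gets no fold.

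Markers of particular neurons and of muscle also differed between PAMAM and saline in these regions. Of 10 measured cortical neuron markers 7 were higher with PAMAM in the hippocampus (median 0.17), with Rspo1 at 0.77. Their summed level was 56.3 in the PAMAM array and 54.3 in the saline array. In the cortex 2 of 10 were higher (median -0.05), Rspo1 was at -0.46 and Rorb at -0.44, and the sums were 102 and 104 in the PAMAM and saline arrays. Of 7 measured hippocampal neuron markers 5 were higher with PAMAM in the cortex (median 0.52), with sums of 46.6 and 34.7 in the PAMAM and saline arrays, Spink8 at 0.81 and Cpne7 at 0.65. Of 9 measured hippocampal markers 8 were lower with PAMAM in the hippocampus (median -0.19), with sums of 107.3 and 119.4 in the PAMAM and saline arrays, Wfs1 at -0.32 and Zbtb20 at -0.29. Olfactory bulb neuron markers were lower for 6 of 8 in the cortex (median -0.21), with sums of 9.28 and 10.5 in the PAMAM and saline arrays, Trh at -1.04 and Dlx6 at -1.01. In the hippocampus 4 of 9 of them were higher (median -0.03), with sums of 5.81 and 6.03 in the PAMAM and saline arrays and Eomes at 1.19. Of 10 skeletal and heart muscle markers, 4 (Actc1, Ckm, Mb and Tnnt3) were above background on no array. Of the 5 measured in the cortex 4 were lower with PAMAM (median -0.36), led by Myl2 (-0.47) and Myh4 (-0.37), with sums over 2 markers of 0.828 and 0.846 in the PAMAM and saline arrays. In the hippocampus 3 of 5 were lower (median -0.04, sums of 0.693 and 0.702), with Myh4 at -0.54. The part of these shifts in the Hspb3 values was not tested.

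Counted over the 6 members measured in each region, the olfactory bulb had 4 that were higher with PAMAM, the hippocampus 5 and the cortex 3. Of all measured genes 47.3%, 51.2% and 53.5% were higher in these regions, so the cortical count is near the share of all genes. A difference of at least 0.32 (log2) was used as a threshold of size. Past it on the higher side was Hspb1 in the olfactory bulb, where 3.86% of all genes were. In the hippocampus Hspb1, Cryab, Hspb8 and Hspb3 passed it, against 7.45% of all genes, and in the cortex Hspb1 and Hspb8, against 7.15%. On the lower side Hspb3 passed it in the cortex, against 10.2% of all genes, and 0 members did in the olfactory bulb (5.79%) and hippocampus (4.44%). Past 2-fold higher was 1 member, Hspb1 in the cortex, against 0.352% of genes there. In the other regions 0 members did, against 0.0515% (olfactory bulb) and 0.582% (hippocampus) of genes. The members had a median difference of 0.09 (olfactory bulb), 0.43 (hippocampus) and 0.06 (cortex), beside -0.01, 0.00 and 0.02 for all genes. Scaling to the array median moved the median of all cortical genes to 0.12 and the shares past the threshold to 14.5% higher and 5.92% lower. In the hippocampus that scaling gave 5.50% higher and 7.22% lower. It left 3 members past the threshold on the higher side there, with Hspb8 at 0.319, under the exact threshold of 0.322.

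**Figure D2:**
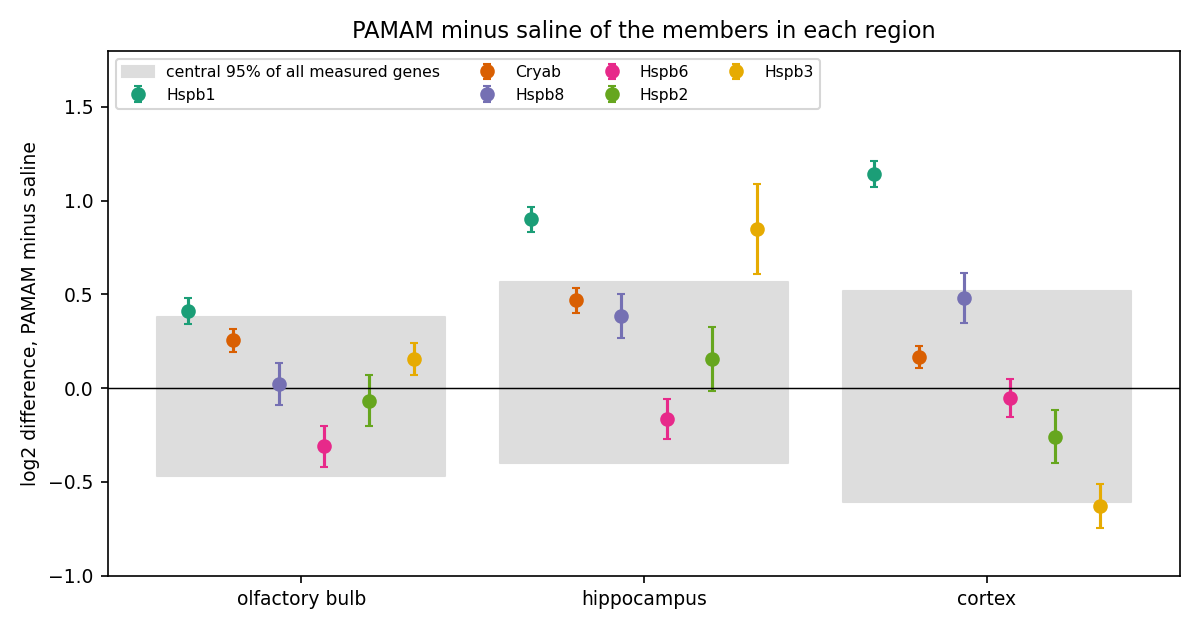
Log2 difference, PAMAM minus saline, of each measured member in each region, with error bars of 1 SD of the difference expected from spot noise and a grey band for the central 95% of all measured genes. Hspb1 lies above the band in all 3 regions (0.41, 0.90 and 1.14), and Hspb3 above it in the hippocampus (0.85) and below it in the cortex (-0.63). The band covers genes of all levels. For genes of the level of Hspb3 in the hippocampus it would reach from -0.61 to 0.84.

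Hspb1, Cryab (probe 1) and Hspb8 were higher with PAMAM in every region, as were 15.3% of the 21093 genes well above background on every array. With the cortex left out the count was 4 members, with Hspb3 added. On probe 2 Cryab was lower in the cortex (-0.10). The difference of Hspb8 in the olfactory bulb, 0.02, lay within 1 spot-noise SD (0.11). Hspb1 passed the threshold of 0.32 on the higher side in every region, as did 57 genes in all (0.27%), and ranked 18 by the mean of its 3 differences, 0.82 (SD 0.37). Cryab and Hspb8 each had a mean of 0.30 (SD 0.16 and 0.24), at ranks 478 and 472.

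To ask whether a difference was larger than the variation between regions, a limma model with region and treatment was fitted to all 55681 probes. Its test uses 15.4 degrees of freedom, most of them borrowed from the spread of other probes of like level. Its intervals and p-values thus reflect this shared spread more than that of the gene itself. Regions are not replicates of a treatment, and the labels do not say whether they came from the same mice, so its p-values can be too small. Of the members, Hspb1 alone passed a limma adjusted p of 0.05, with an estimate of 0.82 (95% interval 0.62 to 1.02, adjusted p = 0.0021, 1.76-fold, higher in 3 of 3 regions). Its differences in the olfactory bulb (0.41) and the cortex (1.14) lay outside this interval. In all 65 probes passed (0.117%), 41 higher and 24 lower, and 3489 had an unadjusted p under 0.05. The call of Hspb1 was lost with quantile normalisation (limma adjusted p = 0.867), in the authors' deposited table (0.9997), with probes limited to those above background on at least 3 arrays (0.309), without the variance trend (0.996) and without the region term (0.99998). The call held with normexp, median scaling and gene medians. Its estimate stayed between 0.66 and 1.02 over 15 settings, which include the fits with 1 array left out. Leaving out either array of a region gives the same estimate here, so those fits are not all separate checks. Cryab had an estimate of 0.30 (interval 0.16 to 0.43) and Hspb8 of 0.30 (0.07 to 0.53), at limma adjusted p-values of 0.124 and 0.634. The estimates of Hspb6 (-0.18), Hspb3 (0.13) and Hspb2 (-0.06) had adjusted p-values of 0.845 or above.

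The same fit compared the regions, with 2 arrays for each, which come from separate pools of PAMAM and saline mice. Cryab and Hspb3 differed most. Cryab was lower in the olfactory bulb than in the hippocampus by a log2 difference of -0.99 (interval -1.15 to -0.82) and than in the cortex by -1.36 (-1.52 to -1.20). Probe 2 gave -0.70 and -1.02, and all of these passed the limma test. Both olfactory bulb arrays lay below all 4 others on each probe. Cryab was higher in the cortex than in the hippocampus by 0.37 (limma adjusted p = 0.0035, and 0.32 with 0.0454 on probe 2).

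Hspb3 was higher in the olfactory bulb than in the hippocampus by 3.40 (interval 2.92 to 3.89), or 10.6-fold, and higher in the cortex than in the hippocampus by 2.61 (2.12 to 3.09). Its olfactory bulb level exceeded the cortical one by 0.79 (limma adjusted p = 0.0139). Without the cortex PAMAM array that difference was 0.23 and lost its call, so its size depends on that array. Its call held in 9 of 15 settings, over which the difference ran from 0.23 to 1.36. The order of levels was olfactory bulb, cortex and hippocampus in both treatments, and the arrays of these regions did not overlap.

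Hspb6 was lower in the olfactory bulb than in the cortex by -0.62 (limma adjusted p = 0.00035). In the cortex Hspb6 was higher than in the hippocampus by 0.37 (limma adjusted p = 0.0482) and Hspb2 by 0.57 (0.0322). Both of these passed narrowly, in 5 and 9 of 15 settings. Hspb1 differed by -0.01 (olfactory bulb minus hippocampus), -0.22 (olfactory bulb minus cortex) and 0.21 (cortex minus hippocampus), with intervals of -0.26 to 0.23, -0.47 to 0.02 and -0.04 to 0.46. These differences did not pass in the fit as given, but passed in 2, 5 and 1 of 15 settings. Hspb8 did not pass in these contrasts either, the nearest being cortex minus hippocampus at -0.38 (limma adjusted p = 0.0999).

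By the limma test the olfactory bulb differed from the hippocampus in 2 members and from the cortex in 3, and the cortex from the hippocampus in 4. Of all probes 27.9%, 29.7% and 9.94% passed in these contrasts. The 4 members of the last contrast became 0 with quantile normalisation, in the authors' deposited table and without the variance trend, and 1 without the hippocampus saline array.

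**Figure D3:**
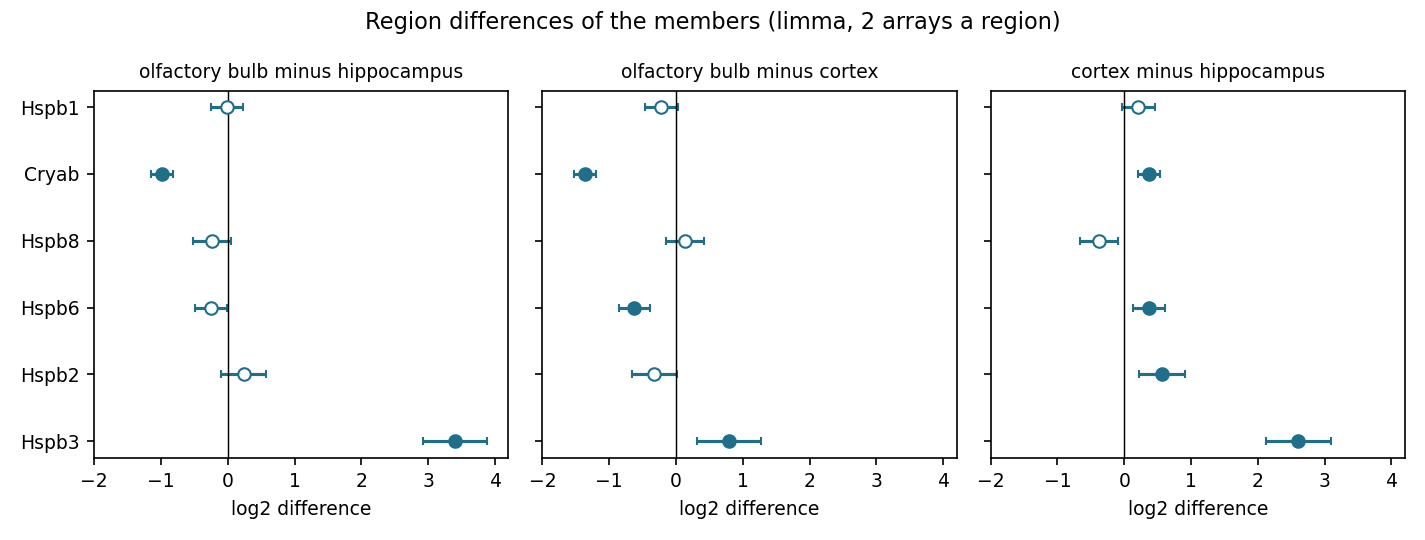
Log2 difference between regions of each measured member from the limma fit, with bars of the 95% interval and filled points for limma adjusted p under 0.05. Hspb3 stands at 3.40 for olfactory bulb minus hippocampus and 2.61 for cortex minus hippocampus, and Cryab at -0.99 and -1.36 for the olfactory bulb against the hippocampus and cortex, while the points of Hspb1 and Hspb8 are open throughout.

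Of a list of 31 other heat shock genes and co-chaperones, 30 were read by the array and measured in every region. With PAMAM 24 of them were higher in olfactory bulb, 27 in hippocampus and 25 in cortex, against 47.3%, 51.2% and 53.5% of all genes. Their median differences were 0.10, 0.16 and 0.14, beside -0.01, 0.00 and 0.02 for all genes. Past the threshold of 0.32 on the higher side were 0, 4 and 6 of them in these regions, against 3.86%, 7.45% and 7.15% of all genes, and on the lower side 1, 0 and 1. Hsph1, a nucleotide exchange factor of HSP70, passed the limma test at 0.34 (interval 0.22 to 0.46, adjusted p = 0.0236, higher in 3 of 3 regions), and was the 1 gene of 30 to do so. An unadjusted p under 0.05 was found for 15 of the 30, and for 3489 of all 55681 probes. The call of Hsph1 held in the fit as given and was lost in 8 others, at limma adjusted p-values of 0.0579 to 0.99998. These were normexp, quantile normalisation, median scaling, the authors' deposited table, the 3-array filter, no variance trend, no region term and gene medians. Its estimates were 0.32 to 0.36 over 15 settings, a check added after its call had been seen. The fits with 1 array left out are among these, and gave the same estimate for either array of a region. Its level was 4.18 and 3.87 in the PAMAM and saline arrays of the olfactory bulb, 5.05 and 4.68 in those of the hippocampus, and 5.14 and 4.80 in those of the cortex.

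Hspa1a, the inducible HSP70, had PAMAM minus saline values of 0.32 (olfactory bulb), 0.35 (hippocampus) and 0.41 (cortex), with a limma adjusted p of 0.320. Its HSP40 partner Dnajb1 was higher by 0.10, 0.26 and 0.35 (limma adjusted p = 0.275). The heat shock factor genes had differences of 0.03, 0.16 and 0.21 for Hsf1 and of -0.37, 0.14 and -0.22 for Hsf2. Also among the 3 greatest differences of a region were Ahsa2, a relative of the HSP90 activator Ahsa1, in the hippocampus (0.36) and the HSP90 co-chaperone Chordc1 (0.45) and the HSP40 Dnajb5 (0.45) in the cortex. In each region the difference of Hspb1 exceeded those of all 30 genes, except that another Hsph1 probe stood at 0.42 in the olfactory bulb, against 0.41 for Hspb1. Hspa1a has a near-identical copy, Hspa1b, so which of them its probe reads is uncertain.

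**Figure D4:**
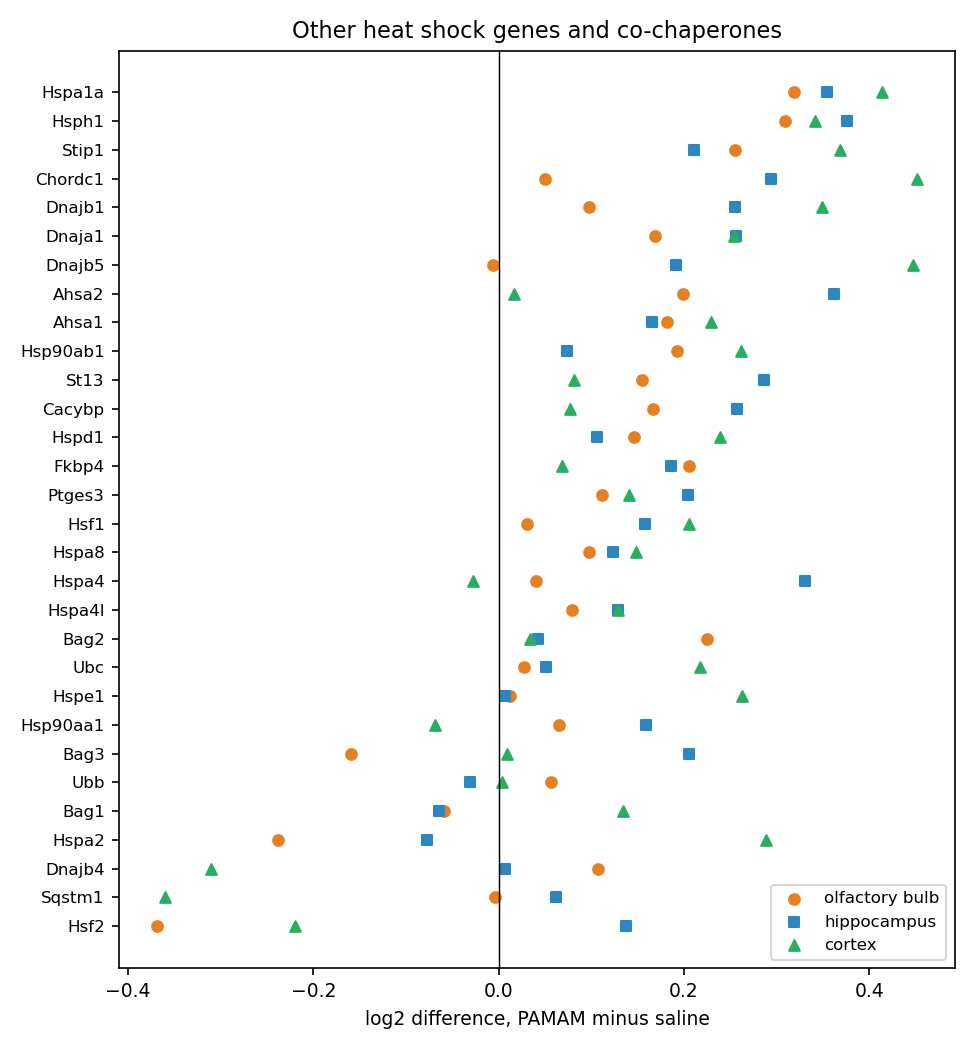
Log2 difference, PAMAM minus saline, of 30 other heat shock genes and co-chaperones in the olfactory bulb (orange circles), hippocampus (blue squares) and cortex (green triangles), sorted by their mean. Most points lie right of 0 and none exceeds 0.45, with Hspa1a and Hsph1 at the top and Hsf2 at the bottom.

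Choroid plexus and red blood cell markers were higher with PAMAM in the hippocampus and the cortex, and markers of meninges and vessel walls in the cortex. Their summed levels, like those above, cover members well above background on all 6 arrays (6 for choroid plexus, 10 for meninges and fibroblasts, 5 for red blood cells, 8 for smooth muscle and pericytes). In the hippocampus all 10 choroid plexus markers were higher with PAMAM, led by F5 (0.98) and Slc4a5 (0.97), with sums of 269 in the PAMAM array and 167 in the saline array. All 6 measured red blood cell markers were higher there too, led by Slc4a1 (0.91) and Hbb-b2 (0.58), with sums of 191 and 141 in the PAMAM and saline arrays. Meningeal markers were split there, 5 of 10 higher (median 0.05, sums of 24.5 and 23.5), and 6 of 8 smooth muscle and pericyte markers were lower (median -0.17, sums of 9.08 and 9.47), with Cnn1 at -1.14 and Mylk at -0.65 (-0.09 on another probe). In the cortex all 7 measured choroid plexus markers (sums of 23.5 and 4.72 in the PAMAM and saline arrays), all 10 meningeal and fibroblast markers (17.1 and 8.95), all 5 measured red blood cell markers (219 and 142) and 7 of 8 smooth muscle and pericyte markers (12.9 and 9.92) were higher. The 2 greatest measured differences of each list were those of Ttr (2.71) and Sostdc1 (1.64, but -0.56 on another probe), Ogn (1.29) and Aldh1a2 (1.18), Hbb-b1 (0.82) and Hbb-b2 (0.69), and Cnn1 (1.13) and Acta2 (0.76). Ahsp, a red blood cell marker, and the muscle filament gene Des were above background on no array. Their part in the differences of Hspb1, Cryab and Hspb8 in these regions was not tested.

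In the olfactory bulb 0 markers of the choroid plexus, meningeal, red blood cell and smooth muscle lists passed 0.32 on the higher side. On the lower side 2 choroid plexus markers passed the threshold (Ttr at -0.54 and Folr1 at -0.44). There 3 of 7 choroid plexus markers were higher, with sums of 6.01 and 6.17 in the PAMAM and saline arrays, 3 of 10 meningeal markers (36.9 and 38.6), 4 of 6 red blood cell markers (197 and 187) and 4 of 9 smooth muscle markers (9.71 and 10.2). Of 10 endothelial markers 5, 5 and 7 were higher in the olfactory bulb, hippocampus and cortex, with medians of 0.01, -0.01 and 0.12. Of 10 astrocyte markers 4, 5 and 7 were higher (medians -0.01, 0.00 and 0.08), and of 10 oligodendrocyte markers 4, 8 and 3 (medians -0.08, 0.13 and -0.09). Of the measured reactive astrocyte markers 5 of 9, 4 of 8 and 5 of 7 were higher (medians 0.01, 0.03 and 0.34). Past the threshold of 0.32 on the higher side were 1, 1 and 4 of them, and on the lower side 1, 0 and 0. The greatest differences were those of Cxcl10 in the olfactory bulb (0.57), Timp1 in the hippocampus (1.83), and Cp (0.56) and Vim (0.43) in the cortex. Steap4 was above background on no array. The part of these shifts in the member differences was not tested. Microglia markers were higher for 6, 6 and 9 of 10 and general neuron markers for 5, 6 and 8 of 10.

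The genes whose profile lay nearest to a member were taken by the root mean square of the differences between mean-centred log2 levels over the 6 arrays, among 21093 genes. Nearest to Hspb1 were Cytl1, a secreted cytokine-like protein (0.12), the transcriptional repressor Bcl6b (0.18), the collagen-binding integrin Itga10 (0.19), Spry4, an inhibitor of growth factor signalling (0.19), and a probe named only by a genomic interval (0.19). Cytl1 was higher with PAMAM by 0.51, 0.53 and 1.03 in the olfactory bulb, hippocampus and cortex. Nearest to Cryab were another interval probe (0.06), the synaptic adhesion gene Lrrtm2 (0.07), the ERK phosphatase Dusp6 (0.09), the chromatin protein Arid5b (0.10) and a probe without a gene name (0.11). By the correlation coefficient 1 of the 5 genes of Hspb1 and 0 of those of Cryab were chosen again, so these neighbours depend on the measure.

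Other genes of the family on the array did not pass the limma test for PAMAM minus saline. Hspb9, a testis form, differed by -0.33, 0.12 and -0.35 in the olfactory bulb, hippocampus and cortex. Hspb11, today counted as an intraflagellar transport gene, differed by 0.13, -0.06 and -0.38 on its brighter probe. Cryaa, the lens alphaA-crystallin, had 1 probe that was well above background in the hippocampus (-0.33) and cortex (0.15) but not in the olfactory bulb PAMAM array. Its other probe and Odf1, a sperm tail protein, were above background on no array.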

How the data were processed

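Per the file headers, the authors' scanner output gives the intensity of each spot (processed signal, background subtracted, linear), made with Agilent Feature Extraction 10.7.3.1 on array design 028005 with mm9 probe coordinates. A second deposited file holds the authors' log2 values, which equal the values below after centring by probe, with a largest difference of 0.0233 over 29245 probes. Its column medians were -0.0617 and -0.0906 (PAMAM and saline, olfactory bulb), 0.0252 and -0.0459 (hippocampus) and 0.0347 and 0.0432 (cortex). How it treated repeated spots is not given in the sources used here.

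The values used are log2 of the processed signal minus log2 of its 75th percentile on the same array (452.0 to 709.6, control spots left out). Spots marked as outliers were dropped and spots of a probe averaged. A gene takes its probe with the highest mean. Gene names came from the files, updated through RefSeq for 27229 probes. A gene was called measured where it was well above background on both arrays. Spot noise came from probes spotted 10 times, at like signal, and leaves out labelling, hybridisation and animals. The additive model (region and treatment) was fitted with limma 3.58.1 (eBayes with a variance trend, Benjamini-Hochberg over all 55681 probes) in R 4.3.3. It was also run on simulated data with independent noise and the same shift in every region. That run assumes what the model assumes, so it cannot check the p-values of these arrays. Nothing in the labels says the pools were separate animals beyond 6 independent experiments. The p-values thus measure the spread between these arrays, with spread borrowed from other probes. All members were named, with all their probes. From the list of other heat shock genes, Bag3, Hsf1, Hsf2, Hspa1a, Hsph1 and Dnajb1 and the 3 with the largest difference per region were named. Some single marker genes are not reported here. Alternatives were normexp background (offset 50), quantile and median scaling, the authors' table, a filter on dim probes, other model terms and leaving out each array. Members and lists were chosen with earlier results of these data known. Sequences are from the files and RefSeq (GRCm38.p6).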

Additional observations from a re-analysis of the deposited data

Results flagged for a closer look

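Hspb3 was higher with PAMAM in the hippocampus, by 0.85, and lower in the cortex, by a log2 difference of -0.63, so the single PAMAM array of each region differed from its saline array in opposite directions. The difference between the regions was not tested, since each has 1 array per treatment.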

How the results depend on the processing

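The within-region differences of members kept their sign in the alternatives run, except Hspb6 in the cortex (0.05 with median scaling), and 10 values moved by more than spot noise while 80 did not. Cryab in the cortex was 0.03 as the median of both probes. The counts of members and of other heat shock genes higher in each region stayed within 1.5 times. For PAMAM minus saline, 65 probes passed in limma, 18 with normexp, 206 with median scaling (153 higher, 53 lower), 12 with a median over each gene's probes, 600 to 898 with 1 array left out, and 0 with quantile normalisation, the authors' table, the 3-array filter, no trend or no region term. At an unadjusted p under 0.05 those last 5 gave 2695, 1931, 2163, 1943 and 453. Members passing were 1, 0 in those 5 and 1 to 3 with 1 array left out, Cryab joining without either olfactory bulb array (2 members), and Cryab and Hspb3 without either cortex array (3 members). Fits with 1 array left out keep 1 array of that region, assumed to vary like the others in the region contrasts. For PAMAM minus saline that array adds nothing, since the region term fits it exactly. Leaving out either array of a region thus leaves out the whole region for PAMAM minus saline and gives the same estimate. Probes passing for olfactory bulb minus hippocampus were 15546, but 4473 in the authors' table and 4676 without the trend. For olfactory bulb minus cortex they were 16530, but 4700 and 4910, and median scaling gave 5352 higher and 11572 lower against 6975 and 9555, and quantile 5782 and 5305. Members passing there were 3, but 5 with median scaling and 1 in the authors' table and without the trend. For cortex minus hippocampus 5533 became 1171 with quantile normalisation and 0 in the authors' table and without the trend, where 6891 and 6936 had an unadjusted p under 0.05. Members passing there were 4, but 0 in these 3, 1 without the treatment term and 1 to 4 with 1 array left out. Hspb1 in olfactory bulb minus hippocampus, -0.01, was 0.29 without the olfactory bulb PAMAM array (range -0.32 to 0.29). The authors' table carries no levels for the trend to use, and the causes of the other changes were not tested. Quantile normalisation put 9.01% of cortical genes past 0.32 on the higher side and 7.22% on the lower, while normexp put 4.78% and 0.927% of hippocampal and 0.743% and 1.93% of olfactory bulb genes there. The labels carry no replicate numbers to pair arrays by, and region served as the block of the model.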
